A study of Saccharomyces cerevisiae with 12 samples.

Results

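The effect of losing *RRD1* was examined in log-phase yeast that had received no rapamycin, by setting the 3 knockout libraries without the drug against the 3 wild-type libraries without it. Members were all features with a mean expression of at least 1 FPKM (fragments per kilobase of transcript, scaled to the mapped reads of the library) over these 6 libraries. They numbered 6447 of the 7126 features in the table, and between 6363 and 6402 of them reached 1 FPKM in a given library. Of the features left out, 511 were listed at 0 in all 6 libraries. A further 168 lay between 0 and the minimum.

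The study profiled RNA from the *Saccharomyces cerevisiae* wild-type strain BY4730 and from a purchased *RRD1* knockout strain. Both grew at 30 °C with shaking in YPD, a rich glucose medium, until log phase, and the groups described here received nothing more. For another pair of groups 100 nM rapamycin was added for 50 min, and those 6 libraries are used below to estimate the spread, for values set side by side, and to test whether the knockout effect differed with the drug. The knockout is a single strain, so any other difference between it and BY4730 cannot be told apart from the loss of *RRD1*. The repeats were made on 3 different days, but the labels do not say which libraries share a day, so the *p*-values measure the spread between these libraries.

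Rrd1 is a peptidyl-prolyl isomerase that activates phosphatases of the PP2A class, a role it shares with its relative Rrd2. The PP2A-type catalytic subunits Pph21, Pph22, Pph3 and Sit4 act with scaffold, regulatory and Tap42 partners, and they lie downstream of the nutrient-sensing kinase complex TORC1, the target of rapamycin. In growing cells TORC1 and protein kinase A favor ribosome production and hold back the general stress response, whose genes carry the stress response element (STRE) that Msn2 and Msn4 bind. In earlier genetic work Rrd1 was also tied to microtubules, bud shape, the G1 phase and DNA repair, so gene lists for these processes were included.

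*RRD1* (YIL153W), an exon of 1182 nt at chrIX:55198-56379 of R64, plus strand, was measured at 47.7, 47.5 and 72.3 FPKM in wild-type libraries 1, 3 and 5. Knockout libraries 1, 3 and 5 held 0, 0.103 and 0.203 FPKM (adjusted *p* = 3.15e-08, limma), too little for a fold change. YIL154C, the neighbor upstream on the other strand, was at 68.4, 64.7 and 102.0 FPKM in the wild type and 147.1, 103.4 and 95.4 FPKM in the knockout. The groups overlapped (adjusted *p* = 0.173, limma). YIL152W, which begins 3′ of *RRD1* on the same strand, was at 31.1, 40.0 and 49.8 FPKM against 37.9, 28.3 and 35.6 FPKM, again with overlap (adjusted *p* = 0.515). The next genes out, *GUT2* and YIL151C, also overlapped between the strains.

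The phosphatase system around Rrd1 was described by 22 genes, of which *RRD1* was the only one called. *RRD2*, the paralog in function, was at 28.5, 29.8 and 25.7 FPKM in the wild type and 24.2, 22.2 and 20.3 FPKM in the knockout. Its 3 knockout libraries all lay below the wild type, but the difference was not past the threshold (adjusted *p* = 0.117, limma). The knockout libraries also lay below all wild-type libraries for the catalytic subunits *PPH22* (64.6, 67.3 and 73.9 against 58.2, 54.6 and 53.8 FPKM) and *PPE1* (19.5, 17.3 and 19.1 against 15.8, 13.8 and 15.2 FPKM). The same held for *SAP4*, a partner of Sit4, with 10.8, 13.1 and 15.4 against 8.29, 6.86 and 9.47 FPKM. With *RRD1* itself, 5 of the 22 genes were apart below, against 19.0% of all features. The median log2 fold change of the list was -0.01. For the remaining 17 genes the strains overlapped. Among them were the major catalytic subunits *PPH21* (119.5 to 136.5 against 123.8 to 135.1 FPKM) and *SIT4* (133.2 to 147.7 against 129.2 to 178.5 FPKM). The scaffold *TPD3* (104.0 to 114.9 against 97.4 to 107.1 FPKM), the regulatory subunits *CDC55* (71.9 to 97.3 against 74.5 to 95.6 FPKM) and *RTS1* (55.0 to 74.1 against 63.8 to 76.5 FPKM), and *TAP42* (36.9 to 41.3 against 33.0 to 41.2 FPKM) overlapped too.

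Promoter sequences of some genes named below are shown first as examples. All of them hold matches to motifs counted later, while the windows of other called genes, such as *GPH1* and *GSY1*, hold no STRE match. Each is 180 bases, from 300 to 121 bases before the start codon, read 5′ to 3′ along the gene from the R64 reference. In the first 4, which belong to genes that fell in the knockout, capitals mark the STRE core AGGGG on either strand.
HSP12 chrVI:106956-107135, plus strand: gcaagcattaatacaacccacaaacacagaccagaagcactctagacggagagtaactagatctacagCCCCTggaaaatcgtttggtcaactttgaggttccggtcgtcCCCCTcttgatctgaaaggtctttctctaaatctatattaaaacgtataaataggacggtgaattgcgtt
TSL1 chrXIII:70324-70503, plus strand: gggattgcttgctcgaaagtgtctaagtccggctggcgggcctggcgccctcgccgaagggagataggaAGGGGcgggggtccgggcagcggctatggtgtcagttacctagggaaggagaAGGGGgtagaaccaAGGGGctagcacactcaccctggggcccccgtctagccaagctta
COX5B chrIX:154922-155101, plus strand: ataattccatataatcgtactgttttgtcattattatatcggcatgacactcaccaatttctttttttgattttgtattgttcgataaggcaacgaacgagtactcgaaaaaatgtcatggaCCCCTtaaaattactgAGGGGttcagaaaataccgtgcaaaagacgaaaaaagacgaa
CYC7 chrV:80098-80277, minus strand: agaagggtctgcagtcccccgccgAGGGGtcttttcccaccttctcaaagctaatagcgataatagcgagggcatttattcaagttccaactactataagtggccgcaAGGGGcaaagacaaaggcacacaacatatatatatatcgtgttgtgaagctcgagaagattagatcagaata
In the last, *RPA190* of the RNA polymerase list, capitals mark AAAATTT, the core of the ribosomal RNA processing element (RRPE), and GATGAG, the core of the polymerase A and C element (PAC), on either strand. Neighboring or overlapping matches form a single run of capitals.
RPA190 chrXV:960687-960866, plus strand: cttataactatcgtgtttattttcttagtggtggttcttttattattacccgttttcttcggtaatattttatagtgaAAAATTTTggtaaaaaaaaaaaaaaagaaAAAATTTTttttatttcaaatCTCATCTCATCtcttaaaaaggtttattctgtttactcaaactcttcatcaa

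At an adjusted *p* under 0.01, 36 genes were called lower in the knockout (0.558% of the features tested) and 2 were called higher (0.0310%). At an adjusted *p* under 0.05, the threshold used for gene lists below, 202 were lower (3.13%) and 9 were higher (0.140%). The deleted gene *RRD1* is itself among the lower genes in these and all later counts. The fit was limma on log2(FPKM + 1), so all log2 fold changes are on that scale and understate the change of genes with low levels. An unadjusted *p* under 0.05 was reached by 1067 genes in the lower and 233 in the higher direction. All 3 knockout libraries lay below all 3 wild-type libraries for 1227 features (19.0%) and above them for 421 (6.53%). The calls leaned to one side while the center of all features moved little, with a median log2 fold change of -0.08. Because RNA came from whole cultures, less transcript in every cell and fewer cells with the transcript cannot be told apart.

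The summed FPKM also differed between the strains, from 2350604 to 2584116 in the wild type and from 2148230 to 2242678 in the knockout, and the part of this in the calls was not tested. Rescaling moved the split of the calls at 0.05 to 98 lower and 25 higher with median-ratio scaling, 91 and 22 with quantile normalization, and 50 and 18 when each library was scaled to the same total. The 211 genes called at 0.05 kept their sign under each of the 25 alternative analyses in which they were present. For the 202 lower genes the groups did not overlap. Leaving out a library or changing the variance prior could therefore not change their sign. The counts depended on single libraries. Without wild-type library 1, 3 or 5 they were 117, 106 and 41 lower at 0.05, and 16, 17 and 4 lower at 0.01. Without knockout library 3 or 5 they were 40 and 117 lower at 0.05, and 4 and 10 lower at 0.01. Leaving out wild-type library 6 with rapamycin, which enters only through the spread, gave 113 lower at 0.05 and 17 at 0.01, and without library 4 with rapamycin of the wild type or the knockout 22 and 20 were lower at 0.01. At 0.05 the genes higher numbered 3 without wild-type library 1, 2 when wild-type library 5 or knockout library 3 was left out, and 14 without knockout library 2 with rapamycin. The number higher at 0.01 was 1 in each fit without wild-type library 1, 3 or 5, without knockout library 3 or 5, without wild-type library 4 or 6 with rapamycin, and without knockout library 4 with rapamycin. The steps in the FPKM of weakly expressed genes imply 8440000 to 10990000 mapped reads per library.

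**Figure D1:**
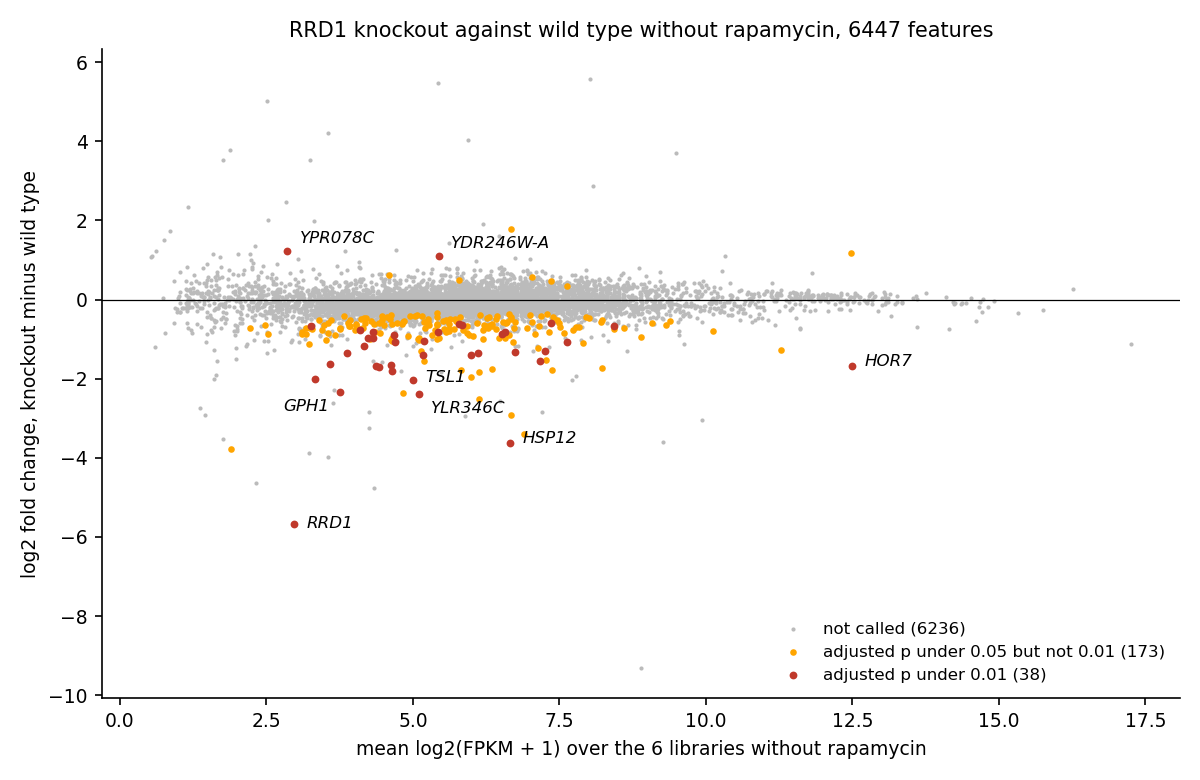
Knockout effect against expression level for all 6447 features without rapamycin. Each point is a feature, the x axis is its mean log2(FPKM + 1) over the 6 libraries and the y axis its log2 fold change between 3 knockout and 3 wild-type libraries. Features called at an adjusted *p* under 0.05 but not 0.01 are orange, those called at 0.01 are red, and all but 9 of the called features lie below 0.

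Of the 36 genes called lower at 0.01, 21 belong to at least 1 of the gene lists used here, and 6 of them to the general stress list. *HSP12*, a small protein that stabilizes membranes under stress, was at 249.5, 383.9 and 453.9 FPKM in the wild type and 31.8, 37.4 and 17.6 FPKM in the knockout. The difference on the log2 scale was -3.62 with a standard error of 0.40. YLR346C, a short gene in the multidrug resistance list, was at 116.3, 67.9 and 58.1 FPKM against 13.1, 16.8 and 12.4 FPKM. *GPH1*, the phosphorylase that breaks down glycogen, was at 27.0, 28.3 and 33.2 FPKM against 6.26, 4.13 and 4.81 FPKM. In each of these genes the lowest wild-type library was over 3 times the highest knockout library. YPR160C-A overlaps *GPH1* on the other strand, and as the sources do not say whether strand was used in counting, reads of the pair cannot be told apart. YPR160C-A was lower too (43.5, 69.1 and 85.6 against 17.5, 11.7 and 7.67 FPKM). *HOR7*, a hyperosmolarity-responsive gene of 180 nt, was the most abundant of the called genes, at 11850, 8534 and 10770 FPKM in the wild type and 4490, 2822 and 2666 FPKM in the knockout. *GAD1*, the glutamate decarboxylase, was at 44.1, 39.1 and 56.2 FPKM against 14.8, 9.51 and 13.2 FPKM. *GPM2*, a homolog of phosphoglycerate mutase, was at 34.9, 32.3 and 41.9 FPKM against 17.0, 7.75 and 8.85 FPKM. *WSC4*, of the family of cell wall sensors, was at 25.3, 36.2 and 58.1 FPKM against 11.8, 8.47 and 12.6 FPKM. It belongs to none of the gene lists. The list of 29 cell wall integrity genes leaned the other way, with 20 positive fold changes, a median of 0.17 and no calls. Of its genes 9 were apart above and 2 apart below, against 6.53% and 19.0% of all features.

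Further down the list, *GSP2*, the less used copy of the Ran GTPase, was at 108.5, 93.8 and 129.0 FPKM in the wild type and 56.8, 37.2 and 35.5 FPKM in the knockout. *ICY1*, a gene of uncertain function, was at 143.9, 169.9 and 200.9 FPKM against 73.9, 67.0 and 60.2 FPKM, with a narrow spread (log2 fold change -1.33, standard error 0.13). YOR289W, which has no named function in the files, was at 29.2, 24.2 and 24.5 FPKM against 13.1, 10.7 and 9.25 FPKM. The other genes called lower at 0.01 and not described below were *ATG33*, *GTT1*, *OSH6*, *RNY1*, *ROM1*, *SCM4*, *TGL2*, *TVP15*, *VMR1*, *WTM1* and YDR089W. In 34 of the 36, *RRD1* included, the knockout was also apart below the wild type in the libraries with rapamycin, against 22.7% of all features. Of the calls at 0.01, 23 were at least 2-fold lower, and the median log2 fold change of the 36 was -1.32. The calls were unequally firm over the 25 alternative analyses. *HSP12* kept its call at 0.01 in 23 of them, *ICY1* in 22, YLR346C and *GSY2* in 21 each, and *GPH1*, *GAD1*, *COX5B* and *ATG33* in 20 each. At the other end *GCV1*, *SCM4* and *TVP15* kept it in 4 and *WSC4* in 6.

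**Figure D2:**
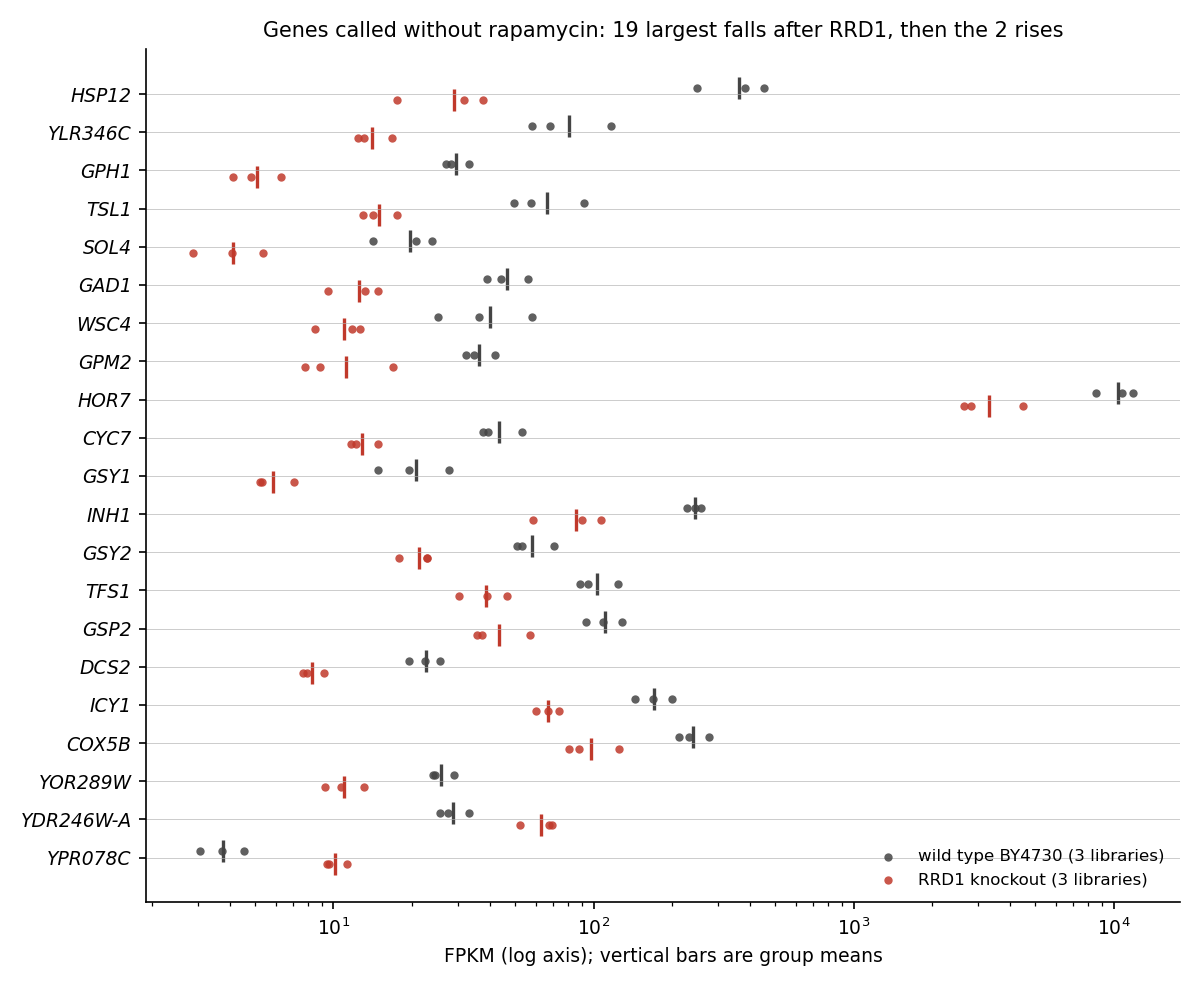
FPKM of called genes in each library without rapamycin, on a log axis. Gray points are the 3 wild-type and red points the 3 knockout libraries, short vertical bars are group means, and the rows are the 19 largest falls after *RRD1* followed by the 2 rises. The groups do not overlap in any row, and *HOR7* is the most abundant gene, with 8534 FPKM or more in the wild type.

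The general stress response was the list with the most calls. Of its 34 genes, 17 fell at an adjusted *p* under 0.05, 6 of them at 0.01, and none rose. The lists and their members were chosen with earlier results of these data known, so their counts are not independent of these data. The counts for this list and those below are to be read against all features. Of these 3.13% were called lower and 19.0% were apart below. All 34 fold changes were negative, the knockout libraries were apart below the wild type for 28, and the median log2 fold change was -0.90. The median over the list of log2(FPKM + 1), relative to the wild-type mean of each gene, stood at -0.10, -0.13 and 0.28 for wild-type libraries 1, 3 and 5 and at -0.81, -1.16 and -0.88 for knockout libraries 1, 3 and 5. Knockout library 3 was the lowest and wild-type library 5 the highest. Without the former the number that fell was 5, without the latter it was 6, and leaving out library 3 of the wild type gave 11 and library 6 of the wild type with rapamycin 10, while the median stayed between -1.09 and -0.75 over all alternatives. *SOL4*, a 6-phosphogluconolactonase of the pentose phosphate pathway, was at 20.8, 14.2 and 23.9 FPKM in the wild type and 5.37, 2.89 and 4.08 FPKM in the knockout. *TFS1*, an inhibitor of vacuolar carboxypeptidase Y, was at 88.8, 95.0 and 124.5 FPKM against 46.7, 30.3 and 38.8 FPKM. *DCS2*, a stress-induced relative of the scavenger decapping enzyme, was at 22.5, 19.5 and 25.8 FPKM against 9.16, 7.66 and 7.89 FPKM. The 11 members that fell at 0.05 but not at 0.01 were *DDR2*, *HXK1*, *HSP26*, *GLK1*, *PGM2*, *MSC1*, *HSP104*, *OM45*, *FMP45*, *UGA1* and *ALD3*, with log2 fold changes from -3.39 for *DDR2* to -0.51 for *ALD3*. *DDR2*, a DNA damage-responsive gene of 186 nt, spanned a wide range among knockout libraries, from 111.9 FPKM in library 1 to 6.75 FPKM in library 5.

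The reserve carbohydrates are made and used by lists that showed the same direction. The lists share members, so the same call can count in several of them. Of the general stress calls, *PGM2* is also a trehalose gene, *HSP26* and *HSP104* are also chaperone genes and *HXK1* and *GLK1* also glycolysis genes. *UGA1* is also in the nitrogen list, which shares *RSB1* with the multidrug resistance list. Of 10 trehalose genes, 3 fell, 8 were apart below and the median log2 fold change was -0.52. *TSL1*, the large regulatory subunit of trehalose synthase, was at 49.5, 57.7 and 91.6 FPKM in the wild type and 17.5, 13.0 and 14.2 FPKM in the knockout. *PGM2*, the phosphoglucomutase that supplies glucose 1-phosphate, was at 62.6, 52.7 and 71.4 FPKM against 27.8, 17.3 and 17.4 FPKM. *UGP1*, which makes the shared precursor UDP-glucose, was at 252.3, 254.1 and 341.3 FPKM against 153.9, 173.3 and 187.8 FPKM. Of 14 glycogen genes all had a negative fold change, and 3 fell, each at 0.01. Besides *GPH1* these were both glycogen synthases. *GSY2*, the main form, was at 50.8, 53.2 and 70.3 FPKM against 23.0, 17.9 and 22.9 FPKM, and *GSY1* was at 19.6, 14.9 and 27.9 FPKM against 5.31, 5.22 and 7.04 FPKM. The median of the glycogen list was nearer to that of all features, at -0.29, and it ranged from -0.39 to -0.15 over the alternatives. Synthesis and breakdown genes thus fell side by side. Leaving out wild-type library 5 or knockout library 3 left 1 trehalose gene that fell.

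Protein folding and redox genes were lower in part. Of 25 chaperone genes 4 fell, namely *HSP26*, *HSP78*, *HSP104* and *SSE2*. *HSP26*, a small heat shock protein that binds unfolded proteins, was at 188.9, 140.1 and 172.5 FPKM in the wild type and 36.9, 25.1 and 24.0 FPKM in the knockout. *SSE2*, the stress-induced Hsp110, was at 34.0, 35.4 and 40.7 FPKM against 19.7, 16.0 and 15.1 FPKM. *HSP104*, the disaggregase, was at 147.7, 126.1 and 183.5 FPKM against 54.5, 76.7 and 86.5 FPKM, and here the lowest knockout value was in library 1. Of 27 antioxidant genes 5 fell, by less. *GRX1*, a glutaredoxin, was at 755.9, 598.0 and 657.3 FPKM against 435.9, 421.1 and 459.2 FPKM, and the others were *DOT5*, *GRX2*, *HYR1* and *PRX1*. Under median-ratio scaling no antioxidant gene was called, nor was any when library 1 or 5 of the wild type or library 3 of the knockout was left out, and the count was 1 without knockout library 1 or 5, 2 without wild-type library 6 with rapamycin and 3 without wild-type library 3 or without knockout library 4 or 6 with rapamycin. Of 12 aldo-keto and alcohol reductases 3 fell, *ARA1*, YDL124W and YDR248C, while none was called when wild-type library 5 or knockout library 3 was left out and 1 was without wild-type library 1. YDL124W was at 207.5, 174.7 and 272.7 FPKM against 98.5, 76.2 and 101.3 FPKM. The number of chaperones that fell was reduced to 1 by leaving out wild-type library 5 or knockout library 3, and to 2 without wild-type library 1, knockout library 1 or wild-type library 6 with rapamycin.

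Genes of mitochondrial energy production formed another group of falls. Of 39 genes of the respiratory chain and ATP synthase, 13 fell, 4 of them at 0.01, and none rose. The median log2 fold change was -0.40, and the list medians were apart, at -0.08 to 0.06 in the wild type and -0.46 to -0.35 in the knockout relative to the wild-type mean. Of the 4 at 0.01, *INH1* and *STF1* encode inhibitors of ATP hydrolysis by the synthase and *COX5B* and *CYC7* encode the isoforms of a cytochrome oxidase subunit and of cytochrome *c* that are known from low oxygen, so none of them is a main subunit of the chain in aerated cells. *STF1*, the second of the 36 by *p*-value after *RRD1*, was at 270.2, 288.9 and 299.5 FPKM against 143.0, 138.7 and 124.5 FPKM. *INH1* was at 229.2, 246.3 and 260.0 FPKM against 107.3, 90.2 and 58.6 FPKM. *COX5B* was at 278.3, 212.9 and 232.0 FPKM against 125.7, 80.2 and 88.2 FPKM, and *CYC7* was at 37.6, 39.2 and 53.3 FPKM against 14.9, 11.6 and 12.2 FPKM.

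The other 9 of these calls were subunits of the machinery itself, with smaller falls. Of these, *QCR10*, *RIP1*, *CYT1*, *QCR7* and *COR1* belong to complex III. *RIP1*, its iron-sulfur protein, was at 99.0, 109.1 and 120.3 FPKM in the wild type and 77.4, 56.0 and 63.2 FPKM in the knockout, and *QCR7* was at 284.5, 321.6 and 299.7 FPKM against 223.4, 215.8 and 217.5 FPKM. *COX8* of complex IV was at 844.2, 789.6 and 798.5 FPKM against 522.5, 527.4 and 622.6 FPKM. *NDE2*, an external NADH dehydrogenase, and the synthase subunits *ATP16* and *ATP20* were the remaining members. Leaving out wild-type library 5 or knockout library 3 reduced the 13 calls to 4, leaving out library 3 of the wild type gave 5, and it was 6 without wild-type library 1, knockout library 5 or wild-type library 6 with rapamycin. With median-ratio scaling it was 7 and the median was -0.30.

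In the TCA cycle 3 of 20 genes fell. *LSC2* and *LSC1* encode both subunits of succinyl-CoA ligase, and *SDH4* encodes a subunit of succinate dehydrogenase. None was called without wild-type library 5, and 1 was when knockout library 3 or 5 was left out. *LSC2* was at 138.9, 120.4 and 145.2 FPKM in the wild type and 82.4, 79.0 and 56.3 FPKM in the knockout, and *LSC1* was at 220.4, 191.2 and 216.6 FPKM against 154.6, 144.4 and 138.4 FPKM. The mitochondrial ribosomal proteins showed many small negative values and few calls. Of 66 genes, 63 had a negative fold change and 32 were apart below, against 19.0% of all features, but *MRPL23* was the only call and the median of -0.23 moved to -0.13 with median-ratio scaling. Short features were lower as a class. The median log2 fold change was -0.22 for the 271 features of up to 300 nt and -0.02 for the 791 features above 2500 nt. The median exon length was 390.0 nt in the respiratory list, 706.5 nt among the mitochondrial ribosomal proteins and 1203 nt over all features, and the part of length in these medians was not tested. The genes called lower at 0.05 had a median exon length of 1122 nt.

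Vacuolar breakdown genes were lower as well. Of 31 autophagy and vacuolar protease genes 7 fell, and the median log2 fold change was -0.36. YBR139W, a vacuolar carboxypeptidase, was at 53.3, 42.9 and 60.2 FPKM in the wild type and 24.3, 23.3 and 26.0 FPKM in the knockout, and it was the only member called at 0.01. *LAP4*, the vacuolar aminopeptidase carried by the Cvt pathway, was at 58.4, 51.1 and 70.6 FPKM against 28.7, 29.1 and 29.6 FPKM. *PBI2*, an inhibitor of proteinase B, was at 664.0, 623.4 and 695.6 FPKM against 333.2, 330.2 and 366.9 FPKM, so the knockout libraries lay close together. *PEP4*, proteinase A, was at 299.2, 244.2 and 326.5 FPKM against 192.2, 163.2 and 181.4 FPKM. The other members that fell were *ATG7*, which activates the ubiquitin-like proteins of autophagy, *ATG19*, the Cvt cargo receptor, and *CIS1* (YDR022C). Outside the list, *ATG33* of mitophagy was at 52.3, 54.6 and 61.5 FPKM against 33.6, 29.2 and 30.8 FPKM, and *RNY1*, the vacuolar ribonuclease, was at 26.5, 23.2 and 26.9 FPKM against 11.8, 11.0 and 14.6 FPKM. Leaving out wild-type library 5 or knockout library 3 left 1 of the 7 calls, and leaving out wild-type library 3 left 4.

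In the lists for glucose uptake and for glycolysis and fermentation the members that fell were *HXK1* and *GLK1*, which phosphorylate glucose, *PYK2*, the minor pyruvate kinase, *ALD4*, a mitochondrial aldehyde dehydrogenase, and the high-affinity transporters *HXT6* and *HXT7*. They make up 4 of 33 glycolysis and fermentation genes and 2 of 15 transporter and sensor genes. The list medians were near 0, at -0.06 and 0.02, with 11 and 8 members positive, and the former was 0.05 with median-ratio scaling. *GLK1* was at 255.8, 243.2 and 460.8 FPKM in the wild type and 130.4, 59.2 and 88.7 FPKM in the knockout. *HXK1* was at 264.7, 257.0 and 326.7 FPKM against 106.3, 25.5 and 16.9 FPKM, and *HXT7* was at 108.4, 118.6 and 148.8 FPKM against 73.2, 27.5 and 15.2 FPKM. In both genes knockout library 1 stood between the wild type and the other knockout libraries. The coding sequences of *HXT6* and *HXT7* are nearly identical, so reads could be split between them. No transporter was called when wild-type library 1, 3 or 5, knockout library 3 or 5 or wild-type library 6 with rapamycin was left out, and 1 was without knockout library 4 with rapamycin. The part of the growth state of the cultures in the differences between the strains was not tested. No glycolysis gene was called in the fits that left out wild-type library 5 or knockout library 3. It was 1 in those that left out wild-type library 3 or knockout library 5, 2 without library 4 or 6 with rapamycin of the wild type, and 6 without knockout library 1.

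The list of 35 nutrient and stress regulators had a median log2 fold change of -0.04, with 15 members positive, and the median was 0.07 with median-ratio scaling. Its members include *PDE1* and *TPK2*, which fell. *PDE1*, the low-affinity phosphodiesterase that degrades cAMP, was at 58.9, 56.0 and 64.5 FPKM in the wild type and 36.3, 39.6 and 40.7 FPKM in the knockout (adjusted *p* = 0.0127, limma). *TPK2*, a catalytic subunit of protein kinase A, was at 39.1, 43.3 and 52.5 FPKM against 30.0, 28.1 and 32.2 FPKM (adjusted *p* = 0.0314, limma). In both genes the strains did not overlap, and neither was called when wild-type library 5 or knockout library 3 was left out.

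Other groups held between 1 and 4 calls. In the multidrug resistance list 4 of 25 genes fell (2 when library 3 of either strain or wild-type library 5 was left out), including *PDR15*, an ABC transporter, at 24.9, 26.3 and 30.3 FPKM in the wild type and 15.5, 13.2 and 11.4 FPKM in the knockout, and *PDR3*, a regulator of these transporters, at 33.1, 34.9 and 33.6 FPKM against 23.4, 20.3 and 25.0 FPKM. Of 32 genes in the nitrogen list 4 fell, namely *AGP1*, an amino acid permease, *UGA1*, which uses GABA, *VID30* and *RSB1*, and the last 2 of these are not classical members of nitrogen catabolite repression. None of the nitrogen calls was left when library 3 of either strain or wild-type library 5 was left out, and the count was 1 without knockout library 5 and 2 without wild-type library 1 or wild-type library 6 with rapamycin. In one-carbon metabolism the directions were mixed. *GCV1* and *GCV2*, subunits of the glycine cleavage complex, fell (116.0, 112.3 and 144.9 against 75.7, 67.8 and 57.8 FPKM for *GCV1*), while *MIS1*, the mitochondrial C1-tetrahydrofolate synthase, rose from 97.5, 116.4 and 105.1 FPKM to 171.2, 160.6 and 146.0 FPKM. *MET6*, the methionine synthase, was at 258.7, 403.3 and 408.7 FPKM in the wild type and 158.9, 167.2 and 164.8 FPKM in the knockout. *FIT3*, a cell wall mannoprotein that helps retain iron, was at 425.0, 173.5 and 247.0 FPKM against 82.8, 86.0 and 102.3 FPKM, with the wild type far more spread than the knockout. No gene of the sulfate and methionine list was called when any 1 knockout library, wild-type library 3 or 5 or wild-type library 6 with rapamycin was left out, and the same held for the iron list without any 1 knockout library, wild-type library 1 or 5, wild-type library 6 with rapamycin or knockout library 4 with rapamycin. *BNA3*, a kynurenine aminotransferase, was at 66.6, 65.2 and 73.7 FPKM against 44.39, 44.40 and 44.47 FPKM.

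For the genes that build ribosomes the fold changes were mostly positive, but few passed the test. All 83 ribosome biogenesis genes had a positive fold change, 53 of them were apart above the wild type against 6.53% of all features, and the median log2 fold change was 0.38. Only 1 was called, *UTP20*, a large component of the small-subunit processome, at 17.2, 22.4 and 16.6 FPKM in the wild type and 31.5, 25.8 and 30.0 FPKM in the knockout. *UTP10* of the same complex was at 47.8, 68.0 and 45.0 FPKM against 90.0, 78.0 and 76.8 FPKM, which did not pass (adjusted *p* = 0.0584, limma). Relative to the wild-type mean the list medians were 0.08, 0.17 and -0.23 in the wild type and 0.46, 0.42 and 0.26 in the knockout. Wild-type library 5 was the lowest, as it was the highest for the stress genes. Without it the median was 0.25 and 79 fold changes were positive, and over all alternatives the median ranged from 0.25 to 0.51.

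Of 27 genes of RNA polymerases I and III, 12 were apart above the wild type and 3 apart below, with a median of 0.30 and no calls. Over all features 6.53% were apart above and 19.0% apart below. *RPA190*, which encodes the biggest polymerase I subunit, was at 73.7, 102.2 and 77.8 FPKM in the wild type and 137.6, 120.5 and 124.6 FPKM in the knockout (adjusted *p* = 0.0772, limma). Among 39 translation factors 18 were apart above and none below, the median was 0.16, and none was called. *YEF3*, the fungal elongation factor, was at 1854, 2043 and 1876 FPKM against 2732, 2390 and 2632 FPKM (adjusted *p* = 0.0944, limma). For the 135 cytosolic ribosomal protein genes the median was 0.05 without rapamycin, 0.16 with median-ratio scaling and 0.19 when scaled to the same total. Of these genes 106 had a positive and 28 a negative fold change, against 2351 and 4089 of all features, 9 were apart above and 1 below, the list medians of the strains overlapped, and no gene was called, while the same genes had a median of 1.09 between the strains with rapamycin. At an unadjusted *p* under 0.05 there were 22 ribosome biogenesis genes in the higher direction, 7 translation factors, 5 polymerase genes with 1 in the lower direction, and 0 cytosolic ribosomal proteins. Of all 6447 features 233 were higher and 1067 lower at that threshold. The lack of calls does not show that these genes were alike in the strains. The proteasome, with 33 genes, had a median of -0.05 (0.06 with median-ratio scaling), no calls, no unadjusted *p* under 0.05 in limma and no gene whose libraries were apart.

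**Figure D3:**
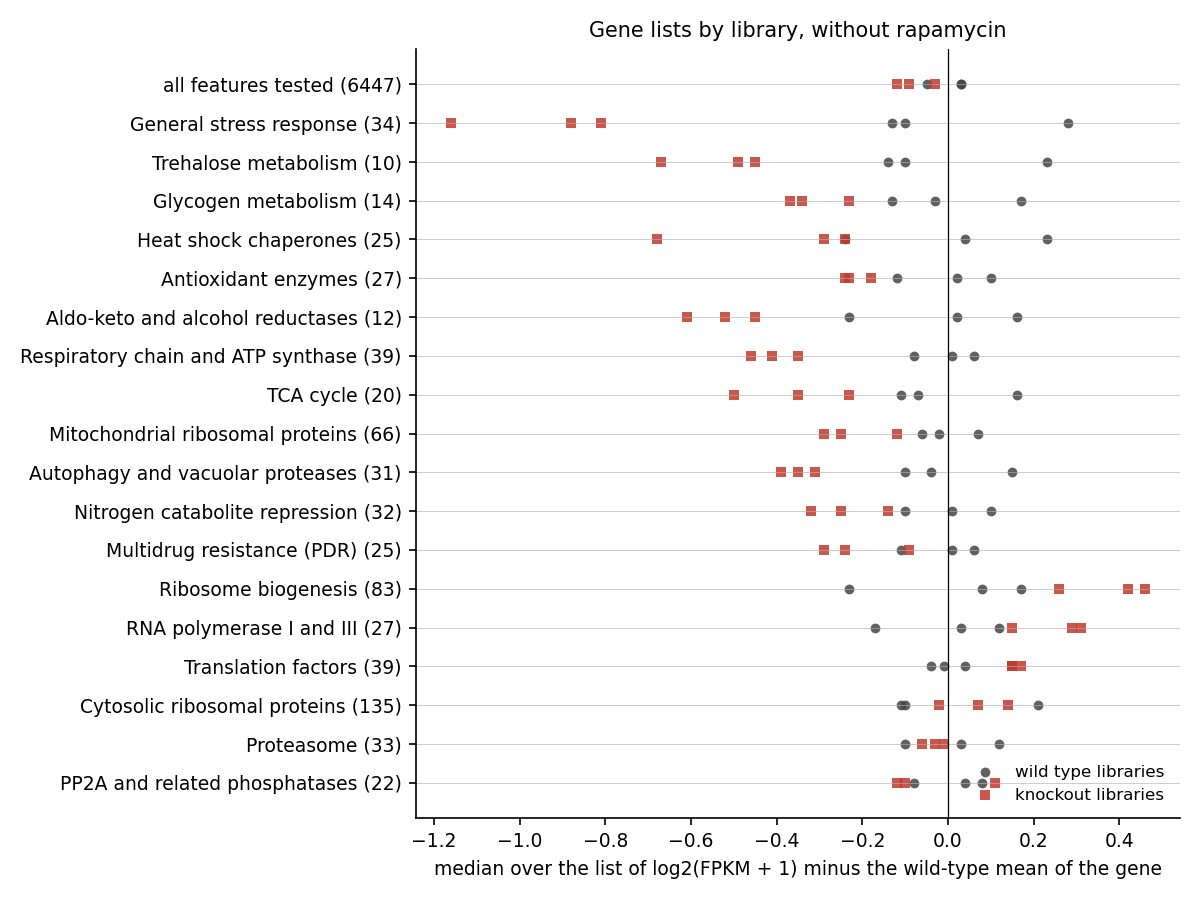
Gene lists by library without rapamycin. The x axis is the median over the genes of a list of log2(FPKM + 1) minus the wild-type mean of the gene, with a gray circle for each of 3 wild-type and a red square for each of 3 knockout libraries, and the number of genes in brackets. The general stress list lies at -1.16 to -0.81 in the knockout and the ribosome biogenesis list at 0.26 to 0.46, while the medians over all features lie between -0.12 and 0.03.

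Of the 9 genes that rose, the largest fold change with a clear separation was in *PRM7*, a pheromone-regulated gene, at 39.5, 92.8 and 43.9 FPKM in the wild type and 278.6, 160.7 and 148.8 FPKM in the knockout. YPR078C, a gene of unknown function, was at 3.07, 3.72 and 4.54 FPKM against 9.64, 11.3 and 9.45 FPKM and kept its call at 0.01 in 23 of 25 alternatives. YDR246W-A, of 201 nt, was at 33.3, 25.6 and 27.5 FPKM against 69.2, 67.3 and 52.0 FPKM and kept it in 9 of 24. *ATO3*, a plasma membrane transporter tied to ammonium, was at 146.1, 128.5 and 142.5 FPKM against 177.3, 190.1 and 206.3 FPKM. *GLN4*, the glutaminyl-tRNA synthetase, was at 170.3, 186.6 and 164.0 FPKM against 226.5, 221.9 and 216.3 FPKM. *YMC1*, a mitochondrial carrier, was at 47.2, 43.1 and 45.8 FPKM against 64.7, 62.8 and 66.9 FPKM. YLR154W-F, a feature with no match in R64, was at 4359, 2907 and 4362 FPKM against 7211, 11090 and 7981 FPKM. The rest were *MIS1* and *UTP20*, described above.

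The lists for processes tied to Rrd1 in earlier genetic work held 0 or 1 calls each, to be read against 3.13% of all features called lower. Counts of genes apart below are to be read against 19.0%. None of 27 microtubule and kinesin genes was called, although 24 had a negative fold change and 9 were apart below, with a median of -0.22 and 7 at an unadjusted *p* under 0.05. The lowest *p*-value there was that of *SPC110*, a spindle pole body component, at 25.6, 30.4 and 24.8 FPKM in the wild type and 19.0, 17.8 and 21.7 FPKM in the knockout (adjusted *p* = 0.052, limma). None of 35 bud site and polarity genes was called, 1 was lower at an unadjusted *p* under 0.05 in limma and 3 were apart below. Among 30 cyclin and cyclin-dependent kinase genes *CLB1*, a cyclin of the G2 to M transition, fell. It was at 126.1, 132.5 and 112.8 FPKM against 67.8, 55.4 and 64.5 FPKM (log2 fold change -0.98, standard error 0.16), a call at 0.05 that held in 24 of 25 alternatives. The G1 cyclin *CLN2* was at 116.6, 157.0 and 161.1 FPKM against 105.2, 100.3 and 111.2 FPKM and did not pass (adjusted *p* = 0.126, limma). Among 44 DNA repair genes *PHR1*, the photolyase, fell, from 10.6, 13.1 and 16.4 FPKM to 6.85, 6.73 and 8.68 FPKM. All 11 histone genes had a negative fold change, with 3 apart below, 3 at an unadjusted *p* under 0.05 and none called in limma.

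The labels were checked against marker genes. *LEU2*, *URA3* and *MET17* were listed at 0 in all 6 libraries. *HIS3* was at 119.8, 82.7 and 115.0 FPKM in the wild type and 72.6, 82.8 and 75.8 FPKM in the knockout. The **a**-factor gene *MFA1* was at 202300, 261300 and 229900 FPKM in the wild type and 198900, 67170 and 88460 FPKM in the knockout. The receptor gene *STE2* was at 640.3 to 792.7 against 530.5 to 882.0 FPKM. Of the alpha-cell genes, *MATALPHA1* was listed at 0 throughout. *MF(ALPHA)2* was at 29.7 to 44.8 against 28.9 to 40.8 FPKM, *SAG1* at 13.5 to 26.2 against 21.7 to 24.0 FPKM and *STE3* at 3.66 to 5.32 against 2.71 to 5.25 FPKM. Both strains thus showed the transcripts of **a** cells, beside lower levels of some alpha-cell genes. Of 11 stationary-phase genes all had a negative fold change and 4 were apart below, with *GSP2* the only call. The sporulation regulator *IME1* was at 6.24 to 14.1 FPKM in the wild type and 9.49 to 13.5 FPKM in the knockout. The first principal component of the 6 libraries held 29% of the variance and placed the knockout libraries on one side and the wild-type libraries on the other.

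The libraries with rapamycin share no sample with those above. They are not unrelated to them, since deviations from the group mean in libraries with consecutive numbers (1 and 2, 3 and 4, 5 and 6) correlated at 0.17 to 0.30 within each strain. Of the 202 genes that were lower without rapamycin, *RRD1* included, 199 had a negative fold change between the strains with rapamycin, against 52.6% of all features. In 162 of them the knockout libraries with rapamycin all lay below the wild type, against 22.7% of all features. The medians of the 202 were -0.73 without and -0.56 with the drug. *HSP12*, *GPH1*, *TSL1* and *GAD1* had log2 fold changes of -3.12, -2.12, -1.65 and -1.40 with rapamycin. The difference between both knockout effects was called at 0.01 for 17 features (0.264%), and of the genes called without rapamycin YPR078C was the only one among them. That count was 1 in each fit that left out wild-type library 1, 3 or 5, knockout library 3 or 5, wild-type library 2 or 6 with rapamycin or knockout library 4 with rapamycin, 2 without knockout library 1 and 9 without knockout library 2 with rapamycin. With consecutive numbers treated as a random pair it was 446. The level of YPR078C with rapamycin was 68.5, 73.1 and 66.6 FPKM in the wild type and 65.2, 72.6 and 73.4 FPKM in the knockout, so the strains overlapped there. The genes *WTM1*, *CLB1* and *HXK1* had log2 fold changes of 0.07, -0.17 and -1.13 with rapamycin against -0.66, -0.98 and -2.93 without. Their adjusted *p*-values for the difference were 0.0315, 0.0826 and 0.385 (limma). At 0.05 the difference was called for 9 of the genes called without rapamycin. Among them were *MIS1* and YDR246W-A (adjusted *p* = 0.0121 and 0.0304, limma) and *WTM1*.

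**Figure D4:**
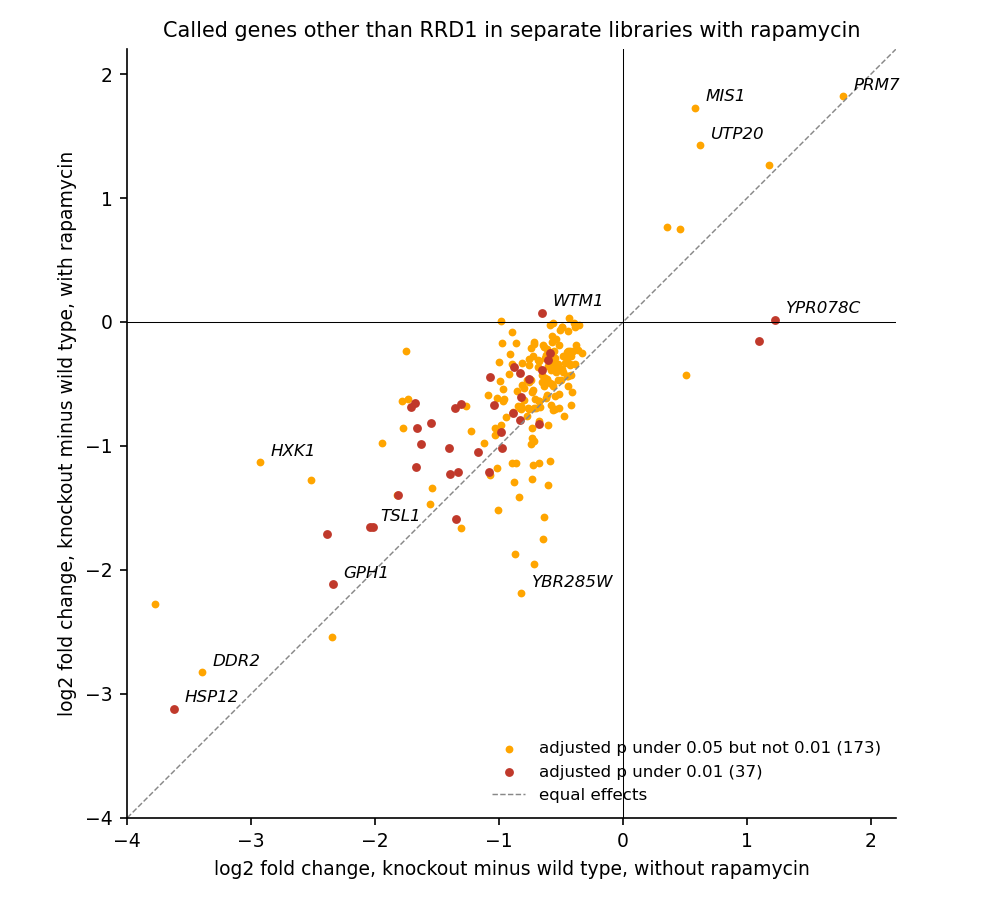
Knockout effect with rapamycin against that without it, for the genes called without rapamycin other than *RRD1*. Both axes are log2 fold changes between 3 knockout and 3 wild-type libraries, red points are the 37 genes called at 0.01, orange points the 173 called at 0.05 only, and the dashed line marks equal effects. The genes that fell without rapamycin lie below 0 on the y axis with 3 exceptions, and YPR078C lies at 0.02.

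The promoter motifs shown above were counted in the 300 bases before the start codon of the 5814 genes with such a window. The STRE core was found in 22.3% of all windows, in 26 of the 36 genes called lower at 0.01 (72.2%) and in 105 of the 195 genes with a window called lower at 0.05 (53.8%). At least 2 matches were found in 3.5%, 33.3% and 16.4%. *RRD1* itself is counted among the genes called lower, and its window holds 1 match. In *HSP12* the matches begin 232 and 190 bases before the start codon and in *TSL1* 231, 179 and 165 bases before it, while the window of *GPH1* holds none. The median log2 fold change was -0.07 for genes with no match, -0.15 for those with 1 and -0.23 for the 203 with 2 or more. Of the latter 37.4% were apart below the wild type, against 17.6% of the genes with none. The 8 genes with a window that rose had none.

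The ribosome biogenesis windows held other letters. AAAATTT was found in 95.2% of the 83 and GATGAG in 90.4%, against 24.9% and 18.8% of all windows, and the STRE core was found in 13.3%. In *RPA190* the first GATGAG match begins 172 bases before the start codon, and 4 matches to AAAATTT lie upstream of it. AAAATTTT holds the motif on both strands and counts as 2 matches. Across all genes the median log2 fold change was -0.12 with no match to AAAATTT, -0.06 with 1 and 0.12 with 2 or more, and -0.11, 0.02 and 0.26 for GATGAG. Of the genes with both motifs, 359 belong to neither the ribosome biogenesis nor the polymerase list. Their median was 0.17, and 97 of them (27.0%) were apart above the wild type. CCAAT, bound by the respiratory regulator Hap2/3/4/5, was found in 82.1% of the 39 respiratory windows and 42.3% of all. Among the genes called lower it was no more frequent than over all windows, at 33.3% for the calls at 0.01 and 40.0% for those at 0.05. These motifs were chosen as textbook elements of the gene groups, and a match is a run of letters and not a measured binding site.

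**Figure D5:**
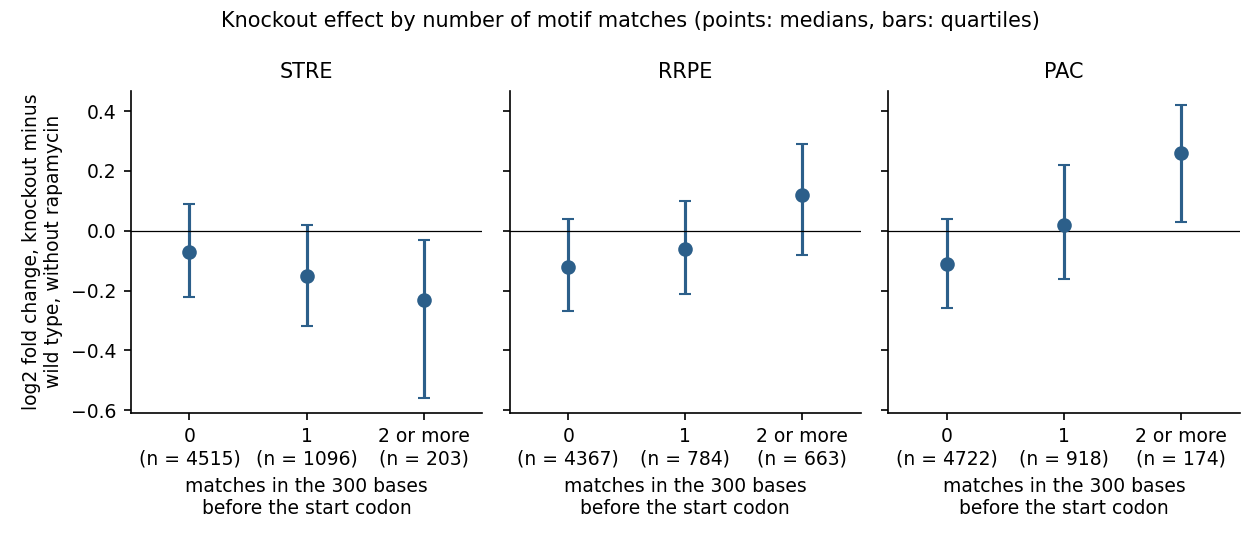
Knockout effect without rapamycin by the number of motif matches in the 300 bases before the start codon. Points are medians and bars the lower and upper quartiles of the log2 fold change over the genes given as n, for AGGGG (STRE), AAAATTT (RRPE) and GATGAG (PAC) on either strand. The median moves from -0.07 to -0.23 with STRE matches and from -0.11 to 0.26 with PAC matches.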

How the data were processed

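RNA was sequenced from 12 TruSeq libraries (250 ng of total RNA each, 100 nt single reads, HiSeq 2500), 3 for each strain with and without rapamycin. Groups were taken from the source names of the samples, and columns were matched to samples by title. The authors aligned reads with TopHat and deposited Cufflinks FPKM values, 1 column per library. Versions, the genome build, the annotation and the use of strand are not given in the sources used here. 0 columns were left unmapped. FPKM are not counts, so depth was inferred from steps in low values and no intervals were computed. CuffDiff, which needs reads, was not run.

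Features with a mean of at least 1 FPKM over the 6 libraries without rapamycin were tested with limma 3.58.1 (R 4.3.3) on log2(FPKM + 1), with 4 group means over all 12 libraries, 8 residual degrees of freedom, a trended empirical Bayes variance and Benjamini-Hochberg adjustment over 6447 features. All adjusted *p*-values are from this fit. On simulated data with 200 changed features it was checked that known changes were found. The simulated noise was independent between libraries, and the changes were placed only in features with a higher level and a limited spread. The check therefore does not cover weak or variable features or correlated libraries. Gene lists are described by counts and medians, with no set test, and their members and the lists themselves were chosen with earlier results of these data known. Genes named are *RRD1*, *RRD2* and their neighbors, genes called higher, the 20 largest falls, PP2A genes, up to 4 genes of each list with the smallest *p*, and strain markers. Further called members of lists and genes with a textbook role were named after their values were seen. R64 coordinates, strands and exon lengths were joined by name for 5816 members and may differ from the annotation used. Promoter windows were read from the RefSeq R64 genome with Python 3 scripts. Alternatives changed the pseudocount (0.1, 5), filter, scaling, libraries, variance prior, block and minimum length (300 nt). A gene and a sequence withheld from this text are not reported here.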

Additional observations from a re-analysis of the deposited data

Results flagged for a closer look

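The following genes were singled out because the knockout effect without rapamycin differed from the knockout effect with rapamycin by the interaction term of limma at an adjusted *p* under 0.01. For YPR078C the difference of the effects (with minus without rapamycin, log2) was -1.21 (standard error 0.17, adjusted *p* = 0.00957), from an effect of 1.23 without to 0.02 with the drug. For *RPA190* it was 1.77 (standard error 0.24, adjusted *p* = 0.00837) and for *RPA135*, the other large subunit of RNA polymerase I, 1.72 (standard error 0.21, adjusted *p* = 0.0065), from 0.60 and 0.48 without to 2.37 and 2.20 with the drug. For *YEF3* it was 1.33 (standard error 0.18, adjusted *p* = 0.00837), from 0.42 to 1.76. For *URA1*, the dihydroorotate dehydrogenase, it was 1.96 (standard error 0.22, adjusted *p* = 0.00407), from -0.49 without to 1.46 with the drug, and its level without the drug was 838.5, 670.4 and 702.1 FPKM in the wild type and 544.6, 498.0 and 521.6 FPKM in the knockout. Of these genes only YPR078C was called without rapamycin, and *URA1* is the one whose 2 effects have opposite signs.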

How the results depend on the processing

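Genes lower in the knockout at an adjusted *p* under 0.01 numbered 19 with a pseudocount of 5, 9 when scaled to a common total (TPM), 14 with quantile normalization, 3 with the libraries without rapamycin alone and 4 to 45 when a library was left out. Genes higher at 0.01 numbered 1 with a pseudocount of 5, without a filter, with quantile normalization, without a variance trend and without features under 300 nt, 0 with the libraries without rapamycin alone, and 1 to 2 when a library was left out. At 0.05, lower and higher genes numbered 50 and 18 (TPM), 98 and 25 (median-ratio scaling), 91 and 22 (quantile), 50 and 4 (libraries without rapamycin alone), and 40 to 231 and 2 to 14 when a library was left out. The effects with and without rapamycin differed for 11 genes with a pseudocount of 0.1, 7 with no filter, 50 (TPM), 102 (quantile), 7 with no variance trend and 1 to 19 when a library was left out. Scaling to a common total moved list medians to -0.15 (glycogen), -0.27 (respiratory), -0.10 (mitochondrial ribosome), 0.43 (polymerases) and 0.30 (translation factors), median-ratio scaling to -0.30, -0.13 and 0.27 (respiratory, mitochondrial ribosome, translation), and quantile normalization to -0.32 (respiratory). The median of all features was -0.08 in the reported analysis and 0.05, 0.02 and 0.01 under these scalings. The cause of these shifts was not tested. The medians of the phosphatase list (-0.01) and the proteasome (-0.05) likewise became 0.12 and 0.09 when scaled to a common total, and glycolysis went from -0.06 to 0.08. The genes called at 0.05 kept their sign in every alternative that tested them. For the lower genes, whose groups did not overlap, leaving out a library could not have changed it.

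Libraries 1, 3 and 5 of the strains share a number only, and their deviations from the group means correlated at -0.05, 0.04 and 0.13. With the replicate number as a block 14 genes were lower and 0 higher at 0.01, 113 were lower and 12 higher at 0.05, and 7 differed between the effects. Of the 38 genes called at 0.01, 8 were also called with the block. Treating consecutive numbers within a strain as a random pair, whose deviations correlated at 0.17 to 0.30 and for which a correlation of 0.52 was estimated, an alternative chosen after the data were seen, gave 34 lower at 0.01, 18 higher at 0.05 and 446 for the difference of effects. CuffDiff was not run. Depth is known only from the steps in low values, so no counting interval is given.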

Other observations

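Knockout library 1 stood apart from knockout libraries 3 and 5 for several genes, among them members of the phosphate and glucose transporter lists. *PHO5*, the secreted acid phosphatase, was at 342.8 FPKM in knockout library 1 and at 61.6 and 77.8 FPKM in libraries 3 and 5, against 130.6, 148.7 and 164.6 FPKM in the wild type. *PHO89*, a sodium-phosphate cotransporter, was at 170.3 against 22.8 and 14.3 FPKM, with 21.5, 36.5 and 21.0 FPKM in the wild type. *HXT3*, a low-affinity glucose transporter, was at 2347 against 1026 and 656.5 FPKM, with 1046, 967.8 and 709.3 FPKM in the wild type.

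For *AGA2*, *HOR2* and *HXT4* library 1 instead lay nearer to the wild type than the other knockout libraries did. *AGA2*, a subunit of **a**-agglutinin, was at 1033 FPKM in knockout library 1 and at 370.1 and 423.1 FPKM in libraries 3 and 5, against 922.2, 1199 and 964.4 FPKM in the wild type. *HOR2*, a glycerol-3-phosphatase, was at 363.5 against 155.0 and 119.5 FPKM, with 376.5, 356.0 and 358.5 FPKM in the wild type. *HXT4* was at 81.1 against 15.0 and 11.8 FPKM, with 62.8, 63.4 and 53.8 FPKM in the wild type. With rapamycin, knockout library 2 likewise held more *AGA2* (2464 FPKM) than libraries 4 and 6 (782.1 and 858.6 FPKM). None of *PHO5*, *PHO89*, *HXT3*, *AGA2*, *HOR2* and *HXT4* was called between the strains, and they were chosen after their values were seen.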
